A study of Mus musculus with 42 samples.

Results

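Mef2a, Mef2c and Mef2d encode MADS-box transcription factors of the myocyte enhancer factor 2 family, and they are described here across 14 groups of mouse forebrain cells. A probe set, the group of probes on an array that reads 1 transcript, was taken as a member when the array annotation gave it exactly 1 gene symbol and that symbol was Mef2a, Mef2c or Mef2d. This gave 12 probe sets of 22690 on the array, and 3 genes of 12393. Mef2a and Mef2c had 5 probe sets each and Mef2d had 2. All 3 genes passed the filter on dim genes that left 9295 genes for testing. The genes were chosen with their levels in these arrays known, so their levels and differences are given as a description, with standard errors and without a test.

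MEF2 proteins bind an A- and T-rich DNA element as dimers. In neurons they are known as activity-dependent factors: class IIa histone deacetylases hold them in a repressing state, and calcium entry relieves this through calcineurin and calcium-dependent kinases. They are known for roles in neuronal survival, in the pruning of excitatory synapses and in the differentiation of cortical neurons, and Mef2c is also known in microglia and in vascular cells.

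The data are 42 single-colour Affymetrix arrays, 3 for each group, with replicates that the series design says came from different animals. In 12 groups, fluorescent neurons of male mice were picked by hand from dissociated 400-micron slices, 27 to 120 cells per array, and their RNA was amplified. The GIN line carries GFP driven by Gad1 regulatory sequence, and GIN_Hip (hippocampus, 63 to 74 days old) and GIN_Cg (cingulate cortex, 63 to 78 days) are labelled somatostatin interneurons. The G42 line also carries GFP: G42_Cg (65 to 79 days) is labelled as parvalbumin interneurons of cingulate cortex and G42_LGN (60 to 66 days) as interneurons of the lateral geniculate nucleus, the visual relay of the thalamus. GFP cells of the G30 line were taken as interneurons from cingulate cortex (G30_Cg, 57 to 68 days) and somatosensory cortex (G30_SS, 57 to 69 days), and from the amygdala with no class in the label (G30_Amy, 60 to 79 days). The YFPH line carries YFP under the Thy1 promoter, and its cells were layer 5 pyramidal neurons of cingulate cortex (YFPH_Cg, 65 to 80 days in the 2 arrays with an age) and somatosensory cortex (YFPH_SS, 65 to 86 days), hippocampal pyramidal neurons (YFPH_Hip, 91 days or older) and amygdala neurons of unstated class (YFPH_Amy, 91 days or older). CT6_Cg (74 to 82 days) held layer 6 pyramidal neurons of C57BL/6j mice without a transgene, filled with beads from the medial dorsal thalamus. GIN_Homog_Cg and G42_Homog_Cg held dissociated cingulate cells of those lines that were not sorted, and their labels give no age. Each transgene picks out only the cells that express it, so a group stands for the labelled cells of a line and not for a whole class.

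The labels were set against marker levels, all on the scale log2(intensity + 16) that is used throughout. Gad1, the GABA-synthesising enzyme, had group means of 11.21 to 12.11 in the 6 interneuron groups and 5.54 to 5.95 in the 4 pyramidal groups. Sst was at 14.12 ± 0.06 in GIN_Cg and 13.54 ± 0.18 in GIN_Hip (SD, n = 3), and Pvalb was at 13.42 ± 0.05 in G42_Cg (SD, n = 3). Pvalb was also at 11.72 ± 0.31 in GIN_Hip and at 11.95 ± 0.83 in YFPH_SS, and in G42_LGN it was at 9.30 ± 0.33 (SD, n = 3). Vip reached 12.47 ± 0.30 in cingulate and 12.52 ± 0.68 in somatosensory G30 cells (SD, n = 3), and mean Thy1 was 14.36 to 14.43 in the 4 YFPH groups, against 13.05 or less in all others. In G30_Amy, Gad1 ran from 6.37 to 9.25 between arrays. The array records mark YFPH_Hip array 1 and YFPH_Amy array 2 as abnormally amplified and YFPH_Cg array 3 as sorted by a new method. Because each array pooled many picked cells, a lower level from fewer cells with a transcript cannot be told apart from less RNA per cell.

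By the mouse assembly GRCm38.p6, Mef2a lies at chr7:67231163-67376456, Mef2c at chr13:83504017-83667079 and Mef2d at chr3:88141941-88172091. The promoter sequences are shown because MEF2 proteins are known to bind promoters of their own family and of early response genes. Promoter windows of 300 bases, 250 before and 50 after a start site, were taken from RefSeq on GRCm38.p6, and all 3 members matched. They were searched for the MEF2 consensus, which is a pyrimidine, TA, 4 positions of A or T, TA and a purine; it reads the same on both strands, so 1 pass covers both. The sequences below run 5′ to 3′ on the gene's strand, in lower case with each match in capitals, from 250 bases before the start to 10 bases after it for the members and with 25 bases on each side of the match for Jun and Hdac5.
Mef2a, chr7:67372849-67373108, minus strand: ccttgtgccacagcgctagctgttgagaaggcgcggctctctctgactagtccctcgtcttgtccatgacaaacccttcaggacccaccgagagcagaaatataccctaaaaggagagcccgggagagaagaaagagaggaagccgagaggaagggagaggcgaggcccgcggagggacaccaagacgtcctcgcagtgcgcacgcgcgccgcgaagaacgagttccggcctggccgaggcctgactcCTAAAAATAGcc
Mef2c, chr13:83503784-83504043, plus strand: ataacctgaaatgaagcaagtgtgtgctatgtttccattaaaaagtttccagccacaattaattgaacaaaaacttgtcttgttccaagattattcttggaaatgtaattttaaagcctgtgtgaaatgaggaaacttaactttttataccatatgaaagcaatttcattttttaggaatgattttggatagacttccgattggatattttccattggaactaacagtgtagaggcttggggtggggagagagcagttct
Mef2d, chr3:88142122-88142381, plus strand: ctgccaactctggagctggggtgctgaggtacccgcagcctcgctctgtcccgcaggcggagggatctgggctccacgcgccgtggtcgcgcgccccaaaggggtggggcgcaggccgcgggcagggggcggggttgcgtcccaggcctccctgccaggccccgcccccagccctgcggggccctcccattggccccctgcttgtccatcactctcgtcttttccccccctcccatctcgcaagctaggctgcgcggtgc
Jun, chr4:95052221-95052280, minus strand: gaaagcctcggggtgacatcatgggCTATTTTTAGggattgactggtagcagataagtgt
Hdac5, chr11:102230158-102230217, minus strand: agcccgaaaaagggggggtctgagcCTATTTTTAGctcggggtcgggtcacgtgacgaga
The Mef2a window held a match whose first base was at position -2 from the start site. Jun, an early response transcription factor, held one at -33, and Hdac5, a class IIa histone deacetylase that binds MEF2 proteins, held one at -20. None of the 3 Mef2c windows and not the Mef2d window held these letters. Of 25 pathway genes with a window, Jun and Hdac5 were the 2 with a match in any of their windows, and so had 3.70% of all 27025 genes. By window, 2 of 40 pathway windows and 3.19% of all 32851 windows of this length held one. A match is a description of the letters and not a binding site.

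Mef2c had the widest range of the 3 members. On its brightest probe set (1451506_at) its group means ran from 9.27 in G42_LGN to 12.59 in YFPH_Cg, a 9.96-fold range. It was high in cortical layer 5 cells and in cortical parvalbumin cells, and low in only 2 of the 14 groups, the geniculate interneurons and the hippocampal pyramidal neurons.

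**Figure D1:**
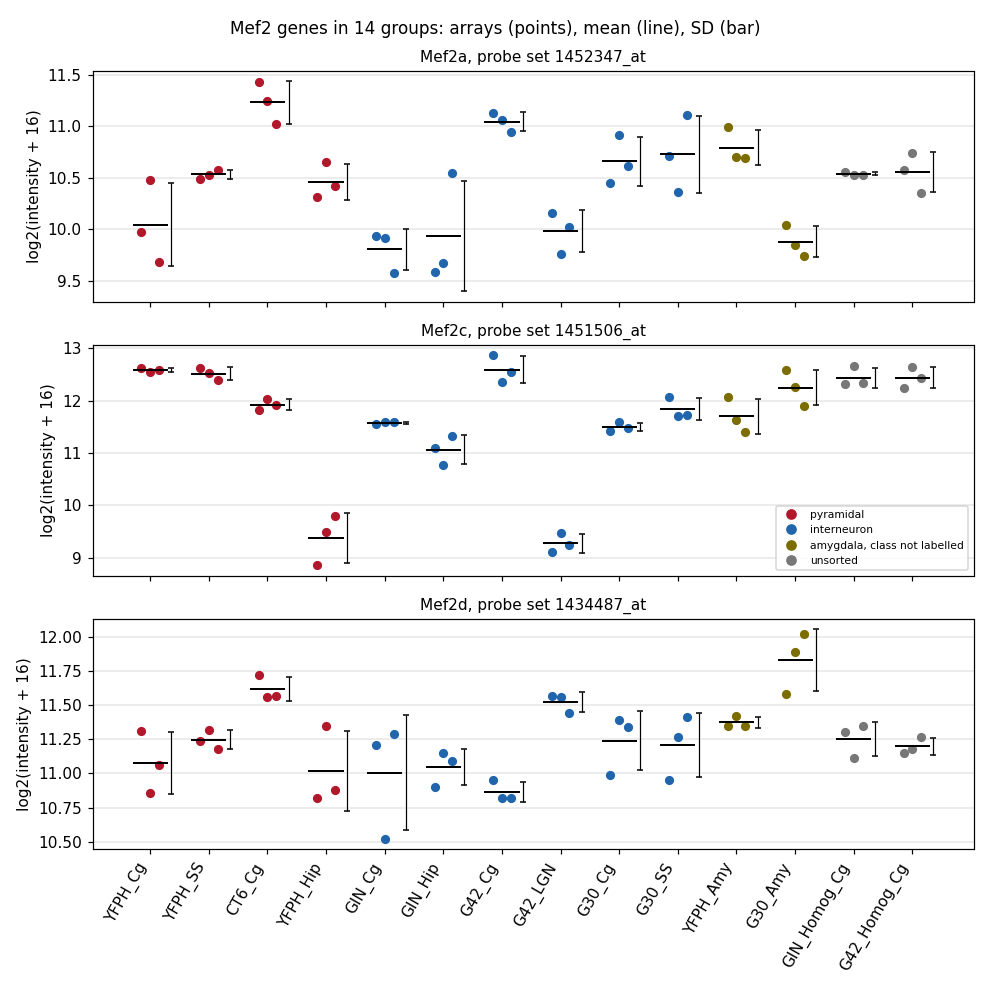
Level of Mef2a, Mef2c and Mef2d on the brightest probe set of each, as log2(intensity + 16) on the vertical axis, for the 14 groups. Points are arrays, horizontal lines are group means and vertical bars are 1 SD either side of the mean (n = 3). Mef2c in G42_LGN and YFPH_Hip lies between 8.86 and 9.80, below every array of the other groups.

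In YFPH_Cg, Mef2c was at 12.63, 12.54 and 12.59 in the 3 arrays. In YFPH_SS it was at 12.63, 12.53 and 12.40. The layer 5 pyramidal groups of both cortical areas were thus high and overlapped. In CT6_Cg it was at 11.82, 12.03 and 11.92, below every layer 5 array.

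In G42_Cg, the parvalbumin interneurons, Mef2c was at 12.87, 12.36 and 12.54, in the range of layer 5 cells. In GIN_Cg, the somatostatin interneurons of the same area, it was at 11.55, 11.59 and 11.59. In G30_Cg it was at 11.43, 11.59 and 11.47, and in G30_SS at 12.08, 11.71 and 11.72. The 3 interneuron lines of cingulate cortex thus fell into a high line, G42, and 2 lower lines that overlapped each other.

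In hippocampus, Mef2c was at 11.09, 10.77 and 11.33 in the somatostatin cells of GIN_Hip. It was at 8.86, 9.49 and 9.80 in the pyramidal cells of YFPH_Hip. The somatostatin cells of GIN_Hip were therefore above the pyramidal cells of YFPH_Hip in every array. This was the reverse of the order of GIN_Cg and YFPH_Cg in cingulate cortex.

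In G42_LGN, Mef2c was at 9.10, 9.47 and 9.25. In the amygdala it was at 12.07, 11.64 and 11.41 in YFPH_Amy and at 12.58, 12.27 and 11.90 in G30_Amy. The geniculate cells were low and the amygdala groups overlapped each other.

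In the unsorted cells, Mef2c was at 12.32, 12.66 and 12.34 in GIN_Homog_Cg and at 12.25, 12.65 and 12.43 in G42_Homog_Cg. On 1421028_a_at G42_Cg was above G42_Homog_Cg by 0.54 without overlap. On the brightest probe set, used here, the unsorted levels overlapped those of the layer 5 and parvalbumin cells. In order of the mean, YFPH_Cg, G42_Cg, YFPH_SS, G42_Homog_Cg, GIN_Homog_Cg, G30_Amy, CT6_Cg, G30_SS, YFPH_Amy, GIN_Cg, G30_Cg, GIN_Hip, YFPH_Hip and G42_LGN followed each other. Of the 13 neighbouring pairs in this order, 11 differed by no more than the larger of their SDs. The 2 steps beyond it were from G30_Cg down to GIN_Hip, 0.43, and from GIN_Hip down to YFPH_Hip, 1.69, and the arrays did not overlap at either.

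Mef2a had a narrower range, 9.80 in GIN_Cg to 11.23 in CT6_Cg on its brightest probe set (1452347_at), or 2.69-fold. It was highest in the layer 6 pyramidal cells and the parvalbumin interneurons. The lowest means were those of GIN_Cg (9.80), G30_Amy (9.88) and GIN_Hip (9.93). G42_LGN (9.98) and YFPH_Cg (10.04) were close above, and the arrays of these groups overlapped. On 1427185_at G42_LGN was lowest (9.29) and G30_Amy was at 9.86. On the brightest probe set Mef2a was at 11.43, 11.25 and 11.02 in CT6_Cg. In G42_Cg it was at 11.13, 11.06 and 10.95. These groups overlapped each other, and their 6 arrays were above every array of GIN_Cg, GIN_Hip, G42_LGN, YFPH_Cg, YFPH_Hip, YFPH_SS and G30_Amy.

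Among the other interneurons, Mef2a was at 10.45, 10.92 and 10.61 in G30_Cg and at 10.71, 10.36 and 11.11 in G30_SS. In GIN_Cg it was at 9.93, 9.91 and 9.57, and in GIN_Hip at 9.58, 9.67 and 10.55. In G42_LGN it was at 10.16, 9.76 and 10.02. The cingulate lines were thus ordered G42, G30 and GIN with no overlap between them, and the spread in GIN_Hip came from array 3.

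Among the layer 5 and hippocampal pyramidal cells, Mef2a was at 9.97, 10.48 and 9.68 in YFPH_Cg, at 10.49, 10.53 and 10.58 in YFPH_SS and at 10.31, 10.65 and 10.42 in YFPH_Hip. In the amygdala it was at 10.99, 10.70 and 10.69 in YFPH_Amy and at 10.04, 9.85 and 9.74 in G30_Amy. In the unsorted cells it was at 10.56, 10.53 and 10.53 in GIN_Homog_Cg and at 10.58, 10.74 and 10.35 in G42_Homog_Cg. The amygdala groups did not overlap, and the unsorted groups lay in the middle of the order. From high to low the means ran CT6_Cg, G42_Cg, YFPH_Amy, G30_SS, G30_Cg, G42_Homog_Cg, GIN_Homog_Cg, YFPH_SS, YFPH_Hip, YFPH_Cg, G42_LGN, GIN_Hip, G30_Amy and GIN_Cg. The arrays of all 13 neighbouring pairs overlapped, and 2 pairs differed by more than the larger SD: G42_Cg over YFPH_Amy by 0.25 and YFPH_Hip over YFPH_Cg by 0.42.

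Mef2d varied least, 10.86 in G42_Cg to 11.83 in G30_Amy on its brightest probe set (1434487_at), or 1.96-fold. In G30_Amy it was at 11.58, 11.89 and 12.02, in CT6_Cg at 11.72, 11.56 and 11.57, and in G42_LGN at 11.57, 11.56 and 11.44. In YFPH_Amy it was at 11.35, 11.42 and 11.35. In G42_Cg it was at 10.95, 10.82 and 10.82. The first 3 of these groups were above all arrays of YFPH_Amy and of G42_Cg.

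In the other groups Mef2d lay between 10.52 and 11.41. It was at 11.31, 10.86 and 11.06 in YFPH_Cg, at 11.24, 11.32 and 11.18 in YFPH_SS and at 10.82, 11.35 and 10.88 in YFPH_Hip. It was at 11.21, 10.52 and 11.29 in GIN_Cg and at 10.90, 11.15 and 11.09 in GIN_Hip. These groups overlapped each other, except that every YFPH_SS array was above every GIN_Hip array. Array 2 of GIN_Cg was the lowest of all 42 arrays. Mef2d was at 10.99, 11.39 and 11.34 in G30_Cg and at 10.95, 11.27 and 11.41 in G30_SS. It was at 11.30, 11.11 and 11.35 in GIN_Homog_Cg and at 11.15, 11.18 and 11.27 in G42_Homog_Cg. Of 13 neighbouring pairs in the order G30_Amy, CT6_Cg, G42_LGN, YFPH_Amy, GIN_Homog_Cg, YFPH_SS, G30_Cg, G30_SS, G42_Homog_Cg, YFPH_Cg, GIN_Hip, YFPH_Hip, GIN_Cg and G42_Cg, 11 differed by no more than the larger SD.

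The probe sets of a gene were compared by how their group means moved, not by their brightness. All 4 other Mef2c probe sets followed the brightest across the 14 group means, with Pearson r of 0.92 to 0.99. For Mef2c the lowest group was G42_LGN on 2 probe sets and YFPH_Hip on 3, and the fold range ran from 6.07 on the dimmest (1451507_at) to 14.6 on 1424852_at. Of the other Mef2a probe sets, 1421252_a_at, 1427186_a_at and 1427185_at followed the brightest with r of 0.96, 0.96 and 0.87. The fourth, 1425426_a_at, was dim, with a mean of 7.51, a range of 0.42 between groups and an r of 0.18. The second Mef2d probe set, 1421388_at, did not follow the first, with an r of -0.32. It was highest in YFPH_Hip (8.99 ± 0.21) and lowest in G30_SS (8.29 ± 0.09, SD, n = 3), so each Mef2d pattern below rests on 1 probe set. These correlations describe group means from the same 42 arrays.

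**Figure D2:**
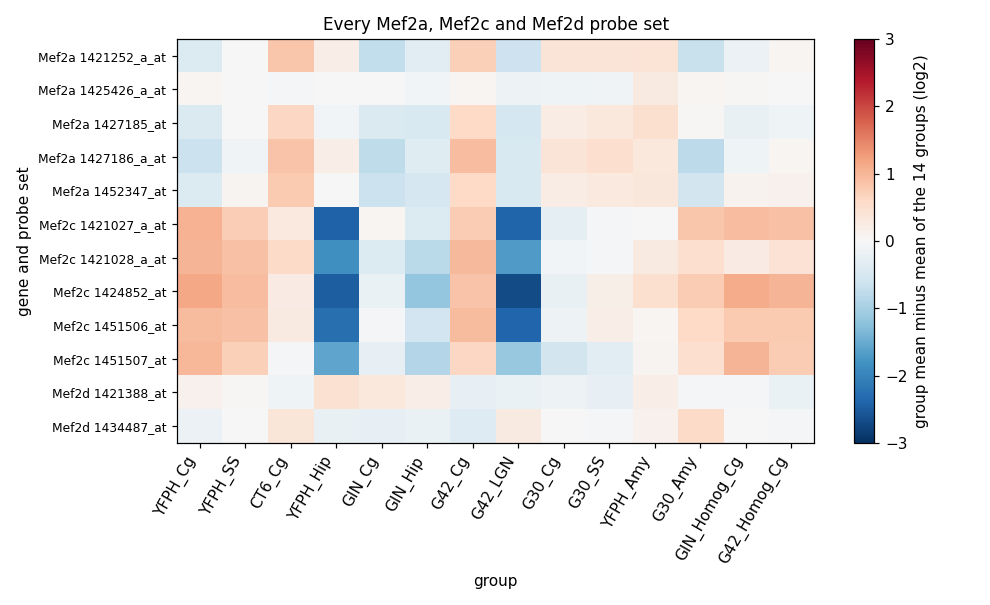
Group mean minus the mean of the 14 groups, in log2 units, for each of the 12 probe sets (rows) and 14 groups (columns). The 5 Mef2c rows share low values in YFPH_Hip and G42_LGN, and the Mef2d rows differ from each other.

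Across the 14 group means the members did not rise and fall together: Pearson r was 0.28 between Mef2a and Mef2c, -0.03 between Mef2a and Mef2d, and -0.03 between Mef2c and Mef2d. Layer 6 and layer 5 cells show the difference between the members. Relative to YFPH_Cg, CT6_Cg was higher for Mef2a and lower for Mef2c. YFPH_Hip was far lower than YFPH_Cg for Mef2c, while its Mef2a arrays overlapped those of YFPH_Cg.

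**Figure D3:**
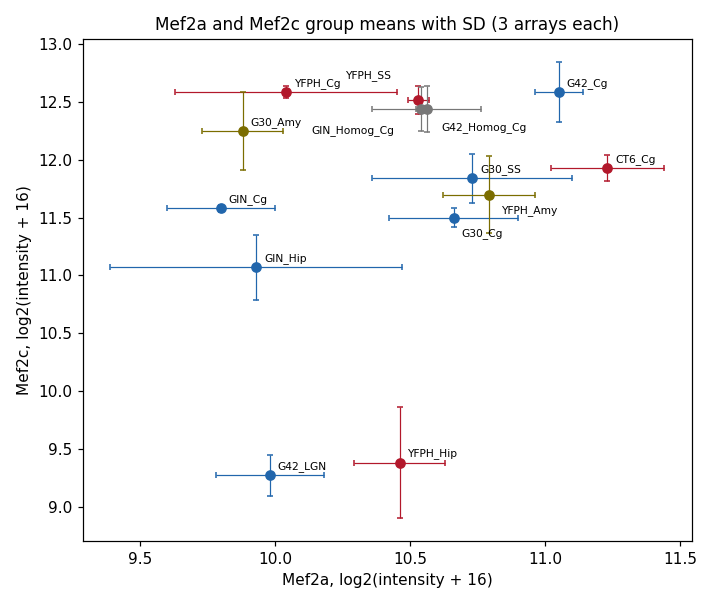
Group means of Mef2a (horizontal) and Mef2c (vertical), each as log2(intensity + 16) on 1 probe set, with SD bars (n = 3). Red marks pyramidal, blue interneuron, olive amygdala and grey unsorted groups. G42_LGN and YFPH_Hip lie apart at the bottom, and G42_Cg is high on both axes.

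For the 7 comparisons, differences are first group minus second on the log2 scale, with the standard error of a model fitted over all 42 arrays and all tested genes. G42_Cg is the second group of 2 comparisons and YFPH_Cg of 2 others. G42_Cg and GIN_Cg also enter the pyramidal against interneuron and the sorted against unsorted comparisons. YFPH_Cg and CT6_Cg enter the pyramidal against interneuron comparison too. Every comparison but that of the amygdala groups thus shares arrays with others. Beside each count of members whose arrays did not overlap stands, as background, the share of the 9295 tested genes whose arrays did not overlap either, and nothing about the members is read from it. The members themselves were given no test. Scan days shared by both sides of a comparison existed only for pyramidal against interneuron cells and for sorted against unsorted cells.

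**Figure D4:**
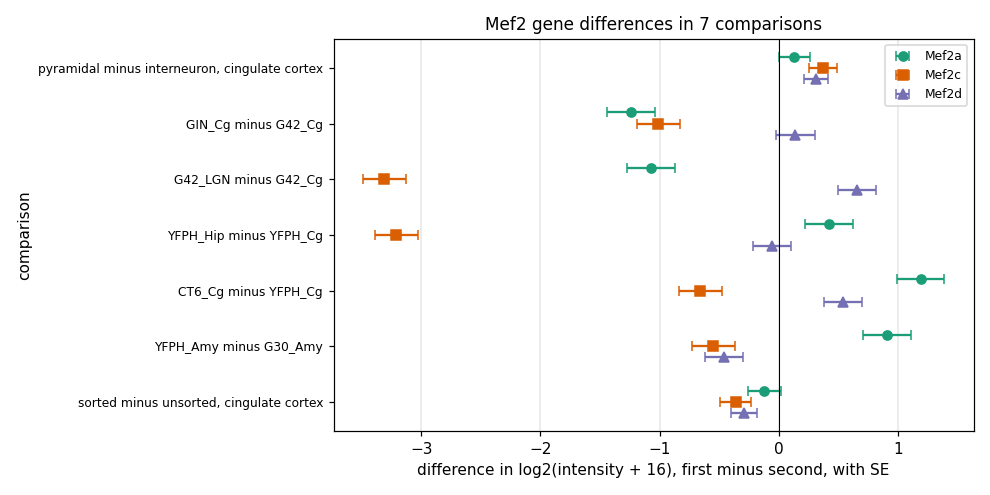
Difference in log2(intensity + 16) of Mef2a, Mef2c and Mef2d in the 7 comparisons, first group minus second; bars are 1 SE. Mef2c falls below -3 in 2 comparisons, and Mef2a and Mef2c point opposite ways where CT6_Cg is set against YFPH_Cg.

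Pyramidal cells (YFPH_Cg and CT6_Cg) were set against the 3 interneuron groups of cingulate cortex. Mef2c differed by 0.37 ± 0.12 (SE), Mef2d by 0.31 ± 0.10 and Mef2a by 0.13 ± 0.13, and for 0 of the 3 members were the arrays free of overlap, as they were for 4.88% of tested genes. On the other probe sets Mef2c ran from 0.49 to 0.63, Mef2a from -0.07 to 0.09, and Mef2d was 0.02. The averages join groups that differ. On the brightest probe set G42_Cg was as high in Mef2c as YFPH_Cg, a difference of 0.00, while GIN_Cg and G30_Cg were lower. On the 4 other Mef2c probe sets YFPH_Cg was above G42_Cg by 0.04 to 0.36. Arrays did not overlap on 1 of these, 1421027_a_at (0.29). Within the 1 scan day that holds both classes, YFPH_Cg array 3 was above the G30_Cg array by 1.16 for Mef2c and the Mef2a difference was -0.77.

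Somatostatin cells were lower than parvalbumin cells of cingulate cortex in Mef2a and Mef2c. GIN_Cg minus G42_Cg was -1.24 ± 0.20 (SE) for Mef2a, a 2.37-fold lower level, and -1.01 ± 0.18 for Mef2c, 2.01-fold lower. On the other probe sets the difference ran from -1.38 to -0.72 for Mef2c and from -1.69 to -0.07 for Mef2a, where the dim 1425426_a_at gave -0.07 and the other 3 gave -1.05 or lower. Arrays did not overlap for these 2 of 3 members, nor for 41.2% of tested genes. Mef2d differed by 0.14 ± 0.16, and by 0.56 on its other probe set. The Gapdh control probe sets gave a 3′ minus 5′ log2 difference, a measure of RNA length, of 3.21 in GIN_Cg and 1.98 in G42_Cg. With it in the model the differences were -1.03 for both Mef2a and Mef2c. Groups of other comparisons differed in this measure too. It was 2.89 in G42_LGN, 2.86 in CT6_Cg, 2.12 in YFPH_Cg, 2.53 in YFPH_Hip, 3.25 in G30_Amy and 2.29 in YFPH_Amy. G30_Cg was also below G42_Cg in Mef2c, by 1.09 on the mean, or 2.12-fold.

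Within the G42 line, geniculate cells had 9.94-fold less Mef2c signal than cortical cells. G42_LGN minus G42_Cg was -3.31 ± 0.18 (SE) for Mef2c, and between -3.55 and -1.76 on its 4 other probe sets. A larger difference in either direction than that of Mef2c was seen for 0.366% of tested genes. For Mef2a this share was 4.46% and for Mef2d 11.9%. Such shares describe size and are not a test. Mef2a was lower by 1.07 ± 0.20, or 2.10-fold, with -1.38 to -0.22 on its other probe sets, and Mef2d was higher by 0.66 ± 0.16, or 1.58-fold, with a difference of 0.04 on its other probe set. Arrays did not overlap for 3 of 3 members, nor for 43.2% of tested genes. The geniculate cells also differ from the cortical ones in the parvalbumin markers, of which all 4 fell (limma, adjusted p under 0.05). On the scan day that G42_LGN shared with GIN_Hip, 2 G42_LGN arrays were at 9.25 and 9.47 for Mef2c and the GIN_Hip array was at 11.09.

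Within the YFPH line, hippocampal pyramidal neurons had 9.25-fold less Mef2c signal than cingulate layer 5 neurons. YFPH_Hip minus YFPH_Cg was -3.21 ± 0.18 (SE) for Mef2c, and between -3.64 and -2.58 on the 4 other probe sets. A larger difference than that of Mef2c was seen for 0.0538% of tested genes. For Mef2a this share was 13.6% and for Mef2d 77.5%, again as a description of size and not a test. Arrays did not overlap for 1 of 3 members, Mef2c, nor for 25.4% of tested genes. Mef2a differed by 0.42 ± 0.20, and by -0.04 to 0.84 on its other probe sets. Mef2d differed by -0.06 ± 0.16, and by 0.32 on its other probe set. Without YFPH_Hip array 1, marked as abnormally amplified and the lowest of the 3, the Mef2c difference was -2.95. The YFPH_Hip mice were older than those of the 2 YFPH_Cg arrays whose labels give an age; the label of YFPH_Cg array 3 gives none. Age and region cannot be told apart in this comparison. The 3 YFPH_Amy arrays had the same ages as the 3 YFPH_Hip arrays and were scanned on the same 2 days. Whether the same mice gave both groups was not tested. On the first day the YFPH_Amy arrays were at 11.41 and 12.07 and the YFPH_Hip arrays at 9.49 and 9.80. On the second day, YFPH_Amy array 2 was at 11.64 and YFPH_Hip array 1 at 8.86, and both are marked as abnormally amplified. In the GIN line, GIN_Hip minus GIN_Cg was -0.51 for Mef2c on the brightest probe set, also without overlap. On the 4 other probe sets it ran from -0.95 to -0.41, and arrays overlapped on 1421028_a_at (-0.41). The difference between these region differences was not tested.

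Layer 6 pyramidal cells of cingulate cortex, set against layer 5 cells, were higher in Mef2a and lower in Mef2c. CT6_Cg minus YFPH_Cg was 1.19 ± 0.20 (SE) for Mef2a, a 2.28-fold higher level, and -0.66 ± 0.18 for Mef2c, 1.59-fold lower. Mef2d was higher by 0.54 ± 0.16 on its brightest probe set and the difference was -0.25 on the other. For Mef2a 3 of its other probe sets gave 1.04 to 1.51 and the dim 1425426_a_at gave -0.08. For Mef2c the others gave -1.02 to -0.45. Arrays did not overlap for 3 of 3 members, nor for 30.4% of tested genes. CT6_Cg cells were labelled by beads and YFPH_Cg cells by a transgene, and the part of the label in these differences was not tested. With scan year in the model, Mef2a differed by 1.37 and Mef2c by -0.67.

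The amygdala groups differed in opposite ways for Mef2a and Mef2c, and the size of both differences depended on the probe set. YFPH_Amy minus G30_Amy was 0.91 ± 0.20 (SE) for Mef2a, -0.55 ± 0.18 for Mef2c and -0.46 ± 0.16 for Mef2d. The other Mef2a probe sets gave 0.20, 0.45, 1.07 and 1.10. The other Mef2c probe sets gave -0.24 ± 0.27, -0.29 ± 0.20, -0.42 ± 0.21 and -0.82 ± 0.26 (SE), and Mef2d turned to 0.26 on its other probe set. Arrays did not overlap for 2 of 3 members, Mef2a and Mef2d, nor for 38.5% of tested genes. The groups were scanned in different years, and with scan year in the model the differences were 0.47, -0.87 and -0.17. Ages also did not overlap between these groups and cannot be told apart from the line.

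Sorted cells were compared with unsorted cells of the same line and area, and the lines differed. The average over both lines was -0.36 ± 0.13 (SE) for Mef2c, -0.12 ± 0.14 for Mef2a and -0.29 ± 0.11 for Mef2d, with 0 of 3 members free of overlap, as 18.6% of tested genes were. The sign of the Mef2a and Mef2d averages turned on the other probe sets, to between 0.02 and 0.26 on all 4 of Mef2a and to 0.15 for Mef2d, while those of Mef2c ran from -0.74 to -0.05. On the brightest probe sets GIN_Cg was below GIN_Homog_Cg by 0.86 for Mef2c, or 1.82-fold, and by 0.73 for Mef2a, without overlap in either. On the other Mef2a probe sets this difference ran from -0.65 to -0.02, and arrays overlapped on 1427185_at (-0.22) and 1425426_a_at (-0.02). G42_Cg was above G42_Homog_Cg by 0.49 for Mef2a without overlap, and its Mef2c arrays overlapped, both on the brightest probe sets. On the 4 other Mef2c probe sets GIN_Cg minus GIN_Homog_Cg ran from -1.31 to -0.65, and arrays overlapped on 1421028_a_at (-0.65). For G42_Cg minus G42_Homog_Cg these ran from -0.18 to 0.54, and arrays did not overlap on 1421028_a_at (0.54). On the 3 scan days shared by GIN_Cg and GIN_Homog_Cg the Mef2c difference was -1.12, -0.75 and -0.73. On the 2 days shared by the G42 groups it was 0.62 and -0.30. In cells known to carry Mef2c outside neurons, the summed intensity of 7 of 8 listed microglial genes with a probe set was 2644 to 3967 in sorted arrays and 8580 to 10408 in unsorted arrays. For 8 of 8 endothelial and mural genes it was 2518 to 3843 in sorted and 6125 to 7647 in unsorted arrays. Of the 3 brightest microglial genes, Csf1r, a growth factor receptor, had a median of 10.30 in the 36 sorted and 12.08 in the 6 unsorted arrays, Ctss, a protease, of 8.04 and 10.77, and Cx3cr1 of 9.90 and 10.22. Of the 3 brightest endothelial and mural genes, Rgs5, a mural cell gene, had medians of 7.36 and 11.22, Vtn of 7.87 and 9.74, and Acta2 of 10.19 and 10.25. The summed intensity of 6 glutamatergic neuron genes was 1422 to 3109 in GIN_Cg and G42_Cg and 13941 to 17588 in the unsorted arrays. All 5 of these that were tested were lower in the sorted cells, with a median difference of -3.26 (limma, adjusted p under 0.05), and glutamatergic layer 5 cells held Mef2c at the levels given above. None of these microglial, vascular and glutamatergic genes was at the lowest deposited value in any array. Their part in the unsorted Mef2c level was not tested.

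The other genes of the MEF2 pathway were taken from a list of 36: 26 regulators and 10 reported targets. Of these, 31 had a probe set of their own and 26 were bright enough to test, 17 regulators and 9 targets. The tests are limma's moderated tests over all 9295 genes with Benjamini-Hochberg adjustment, and the counts stand beside the background of all tested genes.

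In pyramidal cells against interneurons of cingulate cortex, 14 of 26 pathway genes changed, 11 higher and 3 lower, where 30.7% of all tested genes changed, 15.2% higher and 15.5% lower. The median difference over the 26 was 0.12, and -0.02 over all tested genes. Of 8 tested calcium-dependent kinase and calcineurin genes, 5 rose and 2 fell. Ppp3cb, the beta catalytic subunit of calcineurin, was lower in pyramidal cells by 2.26 ± 0.16 (SE, 4.80-fold, adjusted p = 3.46e-14), with a mean of 7.82 in pyramidal and 10.08 in interneuron groups. Camk2b, a subunit of calcium/calmodulin-dependent kinase II, was higher by 1.16 ± 0.14 (adjusted p = 3.25e-08). Of 9 tested targets 4 rose and none fell. These were Arc, an activity-induced synaptic regulator, by 1.83 ± 0.26 (adjusted p = 5.27e-07), Lgi1, a secreted synaptic protein, by 1.46 ± 0.14 (adjusted p = 1.93e-10), Bdnf, a neurotrophin, by 1.12 ± 0.11 (adjusted p = 1.19e-10), and Pcdh10, a protocadherin. Among the MAP kinase genes 0 of 4 changed. Hdac5 was lower by 0.48 ± 0.11 (adjusted p = 0.00103) and Camk1 by 0.30 ± 0.11 (adjusted p = 0.0338).

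**Figure D5:**
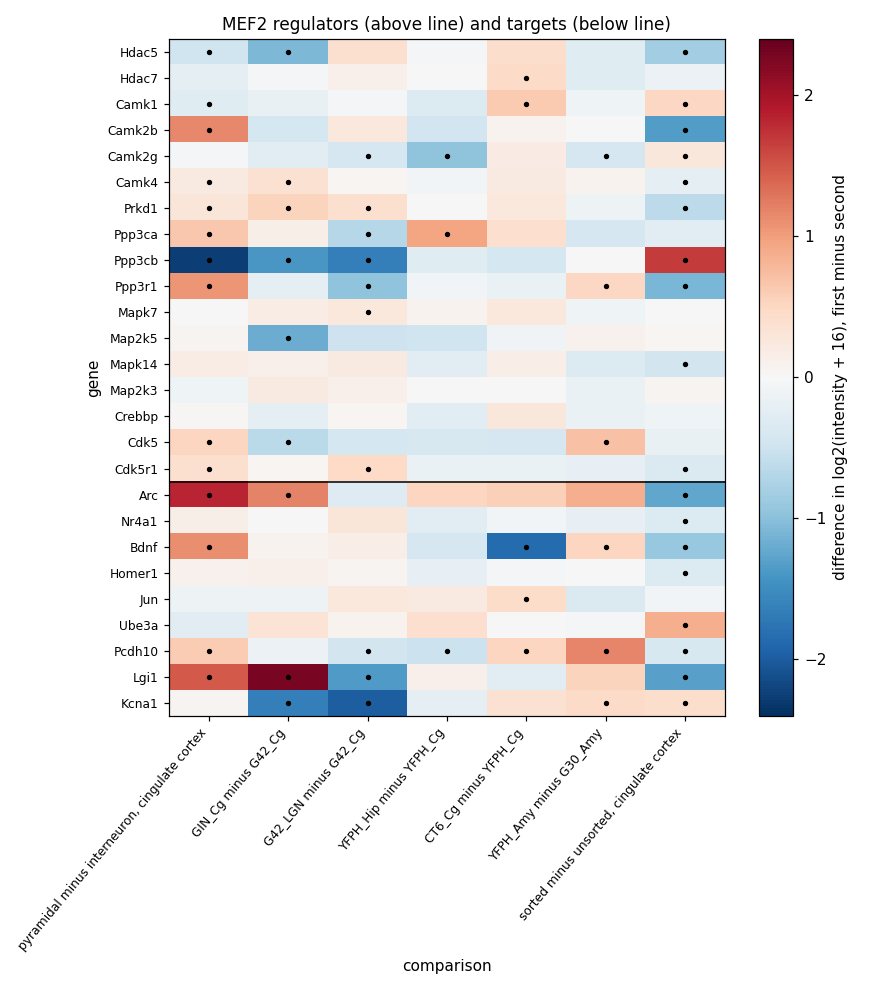
Difference in log2(intensity + 16), first group minus second, of the 26 tested MEF2 pathway genes (rows) in the 7 comparisons (columns), with regulators above the line and targets below. Black dots mark an adjusted p under 0.05. Ppp3cb is low in pyramidal cells and high in sorted against unsorted cells, and Bdnf is low in CT6_Cg against YFPH_Cg.

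In somatostatin against parvalbumin cells, 9 of 26 pathway genes changed, 4 higher and 5 lower, where 29.4% of all tested genes changed, 17.7% higher and 11.8% lower, and the median was -0.03 against 0.07 over all tested genes. Lgi1 was higher in GIN_Cg by 2.28 ± 0.22 (SE, 4.87-fold, adjusted p = 6.35e-10). Kcna1, a potassium channel subunit, was lower by 1.63 ± 0.14 (adjusted p = 3.96e-11), Ppp3cb by 1.41 ± 0.24 (adjusted p = 3.57e-05), and Map2k5, the kinase that activates ERK5, by 1.19 ± 0.20 (adjusted p = 2.56e-05). Hdac5, with the motif match shown above, was lower by 1.08 ± 0.17 (adjusted p = 1.46e-05). The kinases Prkd1 and Camk4 rose, by 0.53 ± 0.13 (adjusted p = 0.00175) and 0.36 ± 0.11 (adjusted p = 0.0131). Arc rose by 1.18 ± 0.40 (adjusted p = 0.0236). With the Gapdh ratio in the model 5 of the 26 changed, 1 higher and 4 lower.

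In geniculate against cortical G42 cells, 10 of 26 changed, 3 higher and 7 lower, where 26.3% of all tested genes changed, 14% higher and 12.3% lower, with a median of 0.06 against 0.05. Of 8 tested calcium-dependent kinase and calcineurin genes 1 rose and 4 fell, with a median of -0.21. Ppp3cb fell by 1.65 ± 0.24 (SE, adjusted p = 2.24e-06) and Ppp3r1, the regulatory subunit, fell by 0.96 ± 0.18 (adjusted p = 6.6e-05). The other two that fell were Ppp3ca, the alpha catalytic subunit, and Camk2g, a subunit of calcium/calmodulin-dependent kinase II. Kcna1 fell by 1.98 ± 0.14 (adjusted p = 1.76e-13) and Lgi1 by 1.37 ± 0.22 (adjusted p = 9.66e-06), and no target rose. Lgi1 was at 5.94 ± 0.34 in G42_LGN and 7.31 ± 0.09 in G42_Cg (SD, n = 3). Both levels were under 7.77, the limit on the mean over all arrays below which genes were not tested. Cdk5r1, the activator of a kinase that phosphorylates MEF2 proteins, rose by 0.47 ± 0.08 (adjusted p = 4.74e-05). Prkd1 rose by 0.39 ± 0.13 (adjusted p = 0.0204) and Mapk7, which encodes ERK5, by 0.24 ± 0.09 (adjusted p = 0.0447). Without G42_LGN array 3, 6 of the 26 changed.

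In hippocampal against cingulate YFPH cells, where Mef2c had its widest gap within pyramidal cells, 3 of 26 pathway genes changed, 1 higher and 2 lower, where 10.1% of all tested genes changed, 4.46% higher and 5.59% lower. The median was -0.17, and 0.01 over all tested genes. Ppp3ca rose by 0.95 ± 0.16 (SE, adjusted p = 5.31e-05), and Camk2g fell by 0.97 ± 0.15 (adjusted p = 1.03e-05). Pcdh10 fell by 0.51 ± 0.16 (adjusted p = 0.0409) and was the 1 target of 9 to change.

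In layer 6 against layer 5 cells, 5 of 26 changed, 4 higher and 1 lower, where 12.6% of all tested genes changed, 5.99% higher and 6.58% lower, with a median of 0.17 against 0.01. Bdnf fell by 1.85 ± 0.16 (SE, 3.60-fold, adjusted p = 1.77e-10), from 10.35 ± 0.07 in YFPH_Cg to 8.51 ± 0.30 in CT6_Cg (SD, n = 3). Camk1 rose by 0.62 ± 0.17 (adjusted p = 0.0108), Pcdh10 by 0.52 ± 0.16 (adjusted p = 0.0321), Hdac7 by 0.46 ± 0.14 (adjusted p = 0.03) and Jun by 0.44 ± 0.13 (adjusted p = 0.0219). Of these 5 calls 1 was left with scan year or the Gapdh ratio in the model, and 1 without YFPH_Cg array 1. Without CT6_Cg array 3 the count was 2, of which 1 was among the 5, and without YFPH_Cg array 2 it was 3.

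In the amygdala, 6 of 26 changed, 5 higher and 1 lower in YFPH_Amy, where 17.4% of all tested genes changed, 9.21% higher and 8.17% lower, with a median of -0.07 against -0.04. Pcdh10 rose by 1.18 ± 0.16 (SE, adjusted p = 3.3e-06). Cdk5, a kinase of MEF2 proteins, rose by 0.70 ± 0.22 (adjusted p = 0.0214), Bdnf by 0.51 ± 0.16 (adjusted p = 0.0281) and Ppp3r1 by 0.50 ± 0.18 (adjusted p = 0.047). Camk2g fell by 0.41 ± 0.15 (adjusted p = 0.0481). The count was 1 with scan year or the Gapdh ratio in the model and 1 without G30_Amy array 3. It was 2 without YFPH_Amy array 2, 2 without G30_Amy array 2 and 3 without YFPH_Amy array 3.

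Between sorted and unsorted cells, 18 of 26 changed, 5 higher and 13 lower in sorted interneurons, where 40.8% of all tested genes changed, 20.9% higher and 19.8% lower, with a median of -0.24 against 0.01. Ppp3cb rose by 1.68 ± 0.17 (SE, adjusted p = 5.41e-10) and Ube3a, a ubiquitin ligase, by 0.87 ± 0.14 (adjusted p = 5.22e-06). Camk2b fell by 1.35 ± 0.15 (adjusted p = 6.25e-09), Lgi1 by 1.29 ± 0.16 (adjusted p = 1.84e-08), Arc by 1.24 ± 0.28 (adjusted p = 0.000493) and Ppp3r1 by 1.11 ± 0.12 (adjusted p = 4.73e-09). Glutamatergic neuron markers moved with the genes that fell and against those that rose, with 5 of 5 tested lower in the sorted interneurons. Markers of other cells moved the same way (limma, adjusted p under 0.05). Lower were 2 of 2 tested oligodendrocyte, 6 of 6 microglial, 5 of 7 endothelial and mural and 4 of 5 astrocyte genes, and none was higher. The part of these markers was not tested.

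The genes whose group means were most like those of a member were found by Pearson r over the 14 group means, among the 9295 tested genes. These are descriptions of group means from the same arrays, with no test. For Mef2a they were Prss23 (0.90), Rcor1 (0.79), Sgk1 (0.78), Wdr45 (0.78) and Pex7 (0.77). Prss23, a serine protease, ran from 5.86 ± 0.27 in GIN_Cg to 11.18 ± 0.06 in G42_Cg (SD, n = 3), and like Mef2a it was higher in YFPH_Amy, 10.80 ± 0.38, than in G30_Amy, 7.07 ± 0.61 (SD, n = 3). For Mef2c they were Efhd2 (0.84), Zmat3 (0.83), Eif5 (0.83), Sri (0.83) and Ttl (0.83), all of them lowest in G42_LGN. Spearman's rho was 0.64 for Efhd2, 0.77 for Zmat3, 0.77 for Eif5, 0.38 for Sri and 0.88 for Ttl, so the rank order of the groups was least like that of Mef2c for Sri. For Mef2d they were Nsmce1 (0.88), Tmpo (0.87), Kctd2 (0.86), Riok3 (0.86) and Usp13 (0.85). Over the 12 sorted groups alone, 2 of the 5 genes stayed among the first 5 for Mef2a, 4 for Mef2c and 3 for Mef2d.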

How the data were processed

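The deposited values are linear intensity values, 1 per probe set and array, from 1 to 22818.24 with array medians of 285.83 to 330.39. The sources used here do not state how they were summarised and scaled. Scan day, scan year and notes came from deposited array run records, which hold 21 scan days in 3 years. RNA came from picked or unsorted cells and was amplified, per the labels' protocols.

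Values were turned into log2(intensity + 16). Control probe sets (64) and those with several symbols (691) or no annotation (1555) were left out; the annotation dates from 2016. Each gene was read from its brightest probe set by mean, and genes under the 25th percentile of the mean (7.77) were not tested. Group means were fitted over 42 arrays (R 4.3.3, limma 3.58.1; 28 residual degrees of freedom), with variances that follow the mean and Benjamini-Hochberg adjustment over 9295 genes. The fit was tested on simulated data. Figures and descriptions used Python 3.11.15.

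The members, comparisons and gene lists were chosen with earlier results of these data known. Named pathway genes are up to 4 called genes with the largest difference per direction and comparison; the most like genes are the 5 with the highest Pearson r per member; marker genes are the 3 brightest of a list where it is expected, of which the text prints some, with Sst, Pvalb, Gad1, Vip and Thy1. Genes of 1 role group may be listed by symbol. Alternatives were quantile normalization, median centring, other pseudocounts (64 and 1) and filters, the other probe sets, scan day, scan year, the Gapdh ratio, the replicate number, the compared arrays alone, and arrays left out. Arrays have no depth, and 3 per group limit the precision.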

Additional observations from a re-analysis of the deposited data

Results flagged for a closer look

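In 3 cases, on the brightest probe set, every array of one line moved one way and every array of another line the opposite way under the same contrast, and none of these differences between lines was tested. For Mef2a, amygdala cells were higher than cingulate cells by 0.75 in the YFPH line and the difference was -0.78 in the G30 line, a difference of 1.53 between the lines. The other Mef2a probe sets gave 0.22 to 0.97 in YFPH. In G30, 1421252_a_at and 1427186_a_at gave -1.05 and -1.16, 1427185_at gave -0.17 with arrays that overlapped, and the dim 1425426_a_at turned to 0.20. Arrays were free of overlap in both lines with opposite signs on 1 of these 4, 1421252_a_at. For Mef2c the same contrast gave -0.88 in the YFPH line and 0.75 in the G30 line, a difference of -1.63. On the 4 other Mef2c probe sets it ran from -1.03 to -0.69 in YFPH and from 0.60 to 1.10 in G30. The YFPH arrays overlapped on 1 of them, 1421028_a_at. The G30 groups also differed in class markers. The summed intensity of 6 glutamatergic neuron genes was 16365 to 18140 in G30_Amy and 1728 to 1793 in G30_Cg. That of 4 GABAergic neuron genes was 544 to 2292 in G30_Amy and 16264 to 17075 in G30_Cg. In the YFPH line the glutamatergic sum was 15705 to 18757 in YFPH_Amy and 18689 to 21128 in YFPH_Cg. For Mef2a, sorted minus unsorted cells gave -0.73 in the GIN line and 0.49 in the G42 line, a difference of -1.22. The other Mef2a probe sets gave -0.65 to -0.02 in GIN and 0.07 to 0.87 in G42. Arrays did not overlap in either line on 2 of these 4, 1421252_a_at and 1427186_a_at. The GIN arrays overlapped on 1427185_at (-0.22), and the arrays of both lines overlapped on 1425426_a_at. The unsorted cells of both lines lay 0.02 apart in Mef2a. The Gapdh 3′ minus 5′ difference, the measure of RNA length, was 3.25 in G30_Amy and 2.61 in G30_Cg. It was 2.29 in YFPH_Amy and 2.12 in YFPH_Cg. GIN_Cg, at 3.21, was above GIN_Homog_Cg in this measure, while G42_Cg (1.98) and G42_Homog_Cg (1.97) were alike. The sorted and unsorted arrays compared here were all of the same scan year. The part of RNA length, age and cell class in these values was not tested, nor that of scan year in the amygdala contrasts.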

How the results depend on the processing

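Differences of the members were recomputed in 252 values under other settings, of which 224 moved by less than the spread between replicates, and in 171 values with 1 array left out, of which 169 did. Quantile normalization, median centring and other pseudocounts moved none of them beyond that spread. On its other probe set, Mef2d differed by 0.02 between pyramidal cells and interneurons, 0.56 for GIN_Cg minus G42_Cg, 0.04 for G42_LGN minus G42_Cg and 0.32 for YFPH_Hip minus YFPH_Cg, and turned its sign to -0.25 for CT6_Cg minus YFPH_Cg, 0.26 in the amygdala and 0.15 for sorted minus unsorted. The mean of the other probe sets gave -2.78 for Mef2c in G42_LGN minus G42_Cg and 0.93 for Mef2a in CT6_Cg minus YFPH_Cg.

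With scan year in the model, the amygdala differences were 0.47 (Mef2a), -0.87 (Mef2c) and -0.17 (Mef2d). Genes called over all 9295 were then 465 in place of 1169 for CT6_Cg minus YFPH_Cg and 144 in place of 1615 in the amygdala, with 1 pathway gene each. With the Gapdh ratio they were 1328 in place of 2735 for GIN_Cg minus G42_Cg (5 pathway genes), 1542 in place of 2446 for G42_LGN minus G42_Cg, 647 for CT6_Cg minus YFPH_Cg (1) and 515 in the amygdala (1). With the compared arrays alone 566 in place of 935 were called for YFPH_Hip minus YFPH_Cg, and 3 pathway genes for CT6_Cg minus YFPH_Cg. Without the arrays marked in their records, Mef2c was -2.95 for YFPH_Hip minus YFPH_Cg, and 1041 genes and 2 pathway genes were called in the amygdala. The cause of these shifts was not tested.

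Within scan day 13, pyramidal minus interneuron was -0.77 (Mef2a), 1.16 (Mef2c) and 0.07 (Mef2d), from 1 array of each class. Sorted minus unsorted within scan days 6, 7 and 8 (GIN) was -0.59, -0.62 and -0.99 for Mef2a, -1.12, -0.75 and -0.73 for Mef2c and 0.10, -0.83 and -0.01 for Mef2d. Within days 9 and 10 (G42), Mef2a gave 0.54 and 0.32, Mef2c 0.62 and -0.30, and Mef2d -0.19 and -0.36. Scan day as a fixed term could be fitted only for sorted minus unsorted. It gave -0.15, -0.35 and -0.26 for Mef2a, Mef2c and Mef2d.

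With 1 array left out, Mef2c in YFPH_Hip minus YFPH_Cg ran from -3.42 to -2.95 and Mef2d in GIN_Cg minus G42_Cg from 0.00 to 0.39. Genes called ran from 582 to 922 for YFPH_Hip minus YFPH_Cg (lowest without YFPH_Cg array 1). They ran from 722 to 1289 for CT6_Cg minus YFPH_Cg (lowest without YFPH_Cg array 1, and 773 without array 2), and from 994 to 1472 in the amygdala (lowest without G30_Amy array 3, and 1016 without YFPH_Amy array 2). Pathway genes ran from 6 to 9 for G42_LGN minus G42_Cg, from 1 to 6 for CT6_Cg minus YFPH_Cg and from 1 to 5 in the amygdala.

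Of 54 same-numbered pairs of deviations 11 correlated over 0.1 (median 0.0295). All 3 pairs did so in 1 of 18 pairs of groups, GIN_Homog_Cg with G42_Homog_Cg (0.242, 0.225 and 0.178), which lie on the same side of their comparison. No 2 groups set against each other had all 3 over 0.1, so there the numbers were taken as numbers only. Pairs of the same number cannot show mice that were shared under different numbers. With the replicate block, sorted minus unsorted gave 3770 in place of 3789 called genes and 18 pathway genes as before. The block gave 2727 in place of 2735 called genes for GIN_Cg minus G42_Cg and 967 in place of 935 for YFPH_Hip minus YFPH_Cg, with Mef2c there at -3.21.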
